A study of Mus musculus with 8 samples.

Results

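Ccl3, Ccl4, Ccl5 and Xcl1 are the chemokine genes that activated T cells and natural killer (NK) cells are best known for, and Xcr1 encodes the receptor of XCL1. These 5 genes, of 24405 genes listed in 8 single-cell libraries of mouse heart, liver and kidney allografts, were taken by name from every library, and their transcripts were counted in the 47542 cells with at least 500 unique molecular identifiers (UMIs, one per captured mRNA molecule). Ccl3, Ccl4, Ccl5 and Xcl1 were listed in 8 of 8 libraries and Xcr1 in 7, the exception being heart PBMC. Over the cells kept, 26904 UMIs were of Ccl3, 45173 of Ccl4, 296320 of Ccl5, 10450 of Xcl1 and 74 of Xcr1.

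The libraries were made by Microwell-seq on day 7 after transplantation, with no immunosuppression given. Donors were BALB/c and recipients C57BL/6 mice aged 8 weeks by the study's methods, while each sample label gives BALB/c and male. Peripheral blood mononuclear cells (PBMC), lymphocytes taken from the graft on a Ficoll gradient (TIL) and cells from collagenase-dissociated grafts (PC) were read for heart, liver and kidney recipients, except that PC of heart were not analysed here. There was 1 library per condition. The study's methods name more than 1 recipient of each organ, but whether animals were pooled in a library is not given in the sources used here. Every interval below therefore covers counting error only and no p-value was computed. Neither the spread between animals nor that between preparations is known.

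CCL3, CCL4 and CCL5 are CC chemokines, and CCL3 and CCL5 bind the receptor CCR1. They draw T cells, monocytes and other leukocytes into inflamed tissue. XCL1, made by NK cells and activated CD8 T cells, binds XCR1, which is carried by conventional type 1 dendritic cells that cross-present antigen to CD8 T cells. In allograft rejection these ligands are studied as signals that recruit more effector cells to the graft, and macrophages and neutrophils can also make CCL3 and CCL4.

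On GRCm38, in the GENCODE annotation, Ccl5 (ENSMUSG00000035042, chr11:83525778-83530518, minus strand), Ccl3 (ENSMUSG00000000982, chr11:83647844-83649355, minus strand) and Ccl4 (ENSMUSG00000018930, chr11:83662584-83664683, plus strand) lie on chromosome 11, where Ccl4 starts 13229 bases past the end of Ccl3. Xcl1 (ENSMUSG00000026573) lies at chr1:164931644-164935527 on the minus strand, and Xcr1 (ENSMUSG00000060509) at chr9:123852315-123862029 on the minus strand. Because Ccl3 and Xcl1 were both higher in grafts than in blood, the 250 bases before their RefSeq start sites (GRCm38.p6) are shown, from chr11:83649379-83649628 and chr1:164935523-164935772, both read on the minus strand, 5′ to 3′. Capitals mark the only match found in these windows to any of the motifs searched on both strands, which were the NF-kB consensus, the AP-1 letters TGANTCA, the NFAT letters TGGAAA, the T-box letters TCACACC, the cyclic AMP response element TGACGTCA and the TATA letters TATAAA.
Ccl3 promoter: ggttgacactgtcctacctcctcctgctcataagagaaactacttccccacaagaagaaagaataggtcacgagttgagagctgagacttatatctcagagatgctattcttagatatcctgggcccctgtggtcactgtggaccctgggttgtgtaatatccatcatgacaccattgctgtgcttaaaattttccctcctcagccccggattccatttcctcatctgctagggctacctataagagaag
Xcl1 promoter: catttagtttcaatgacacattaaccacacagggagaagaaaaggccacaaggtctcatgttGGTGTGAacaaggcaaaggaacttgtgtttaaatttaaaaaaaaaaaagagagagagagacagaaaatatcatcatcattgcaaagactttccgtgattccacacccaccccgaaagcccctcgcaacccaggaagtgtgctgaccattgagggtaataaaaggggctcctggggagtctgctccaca
The capitals are the T-box letters on the opposite strand, beginning 188 bases before the Xcl1 start. The T-box letters were held by 894 of 27025 promoter windows of the same length, 3.31%, NFAT letters by 18.7%, TATA letters by 13%, AP-1 letters by 6.87%, the NF-kB consensus by 4% and the cyclic AMP response element by 1.62%. The match is a description of the sequence and does not show a binding site.

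Cells were assigned by gates rather than clusters. The CD8 gate took cells with at least 2 UMIs of Cd8a and Cd8b1 together, the macrophage gate cells with a Csf1r UMI and the neutrophil gate cells with a Csf3r UMI, so a cell could pass several. The NK gate took cells with at least 2 UMIs of NK receptor genes and none of Cd3 or Cd8 genes, the CD4 gate cells with Cd4 and Cd3 UMIs and none of Cd8 genes, the B gate cells with at least 2 UMIs of Cd79a and Cd79b, and the dendritic gate cells with a Clec9a or Flt3 UMI and at least 2 UMIs of major histocompatibility complex class II genes but no Cd79 UMI. Levels are UMIs of a gene per 1000000 UMIs summed over the cells of a gate in 1 library (CPM), with exact 95% Poisson intervals in parentheses. Shares of cells with a UMI were taken after thinning each cell to 500 UMIs, with exact 95% Clopper-Pearson intervals. The gates themselves were set on all UMIs of a cell before thinning, so which cells enter a share can still depend on depth. A ratio between groups of at least 2-fold, with at least 10 UMIs over both sums, was called higher or lower, with a pseudocount of 1 CPM on the log2 scale.

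Several measured features of the libraries bear on all values. Albumin (Alb) had 1056 UMIs in the library labelled heart TIL and 0 in that labelled liver TIL, while the cardiomyocyte genes Myl7 and Acta1 had 2 and 1 UMIs in the former and 128 and 206 in the latter. The organ genes thus go against both labels, and the libraries are called here "labelled heart TIL" and "labelled liver TIL". Values after exchange of the labels are given for calls of the ligands and in part for Ccr1 and Ccrl2. They are not given for the gene lists or the shares of all genes. A kept cell held at the median 671 to 764 UMIs in the blood libraries and 655 to 794.5 in TIL, against 581 in kidney PC and 1502 in liver PC. These medians follow the floor of 500 UMIs. Before it, the median barcode held 261 UMIs in kidney PBMC, 315 in kidney TIL and 308 in kidney PC, against 585 or more elsewhere. Of 10000 barcodes each, these kidney libraries kept 1143, 2005 and 795 cells, and the other libraries 6822 or more. The part of this difference in the kidney levels was not tested. Pairs of libraries shared 123 to 617 barcodes. The gated CD8 cells held all 6 neutrophil markers at 17935 to 105952 CPM in PBMC and 6 of 6, 6 of 6 and 4 of 6 at 5192, 4624 and 65.4 CPM in TIL, so transcripts of other cell types were counted in the CD8 gate. Free RNA and doublets were not separated, and their part in the results was not tested. Cells that pass several gates, 22 to 1811 a library, were kept in each gate they passed. An alternative with cells of 1 gate alone moved 47 values beyond the limits given below and left 144 within them. The T cell receptor gene Trac was higher in the CD8 gate than over all cells in 7 libraries, from 592 against 78.2 CPM in liver PBMC to 802 against 673 CPM in kidney TIL. In kidney PC it stood at 525 CPM in the CD8 gate, 558 CPM in the macrophage gate and 621 CPM over all cells, so that the gate did not enrich T cells there.

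The 4 ligands fell into 2 patterns in the CD8 gate. Ccl3, Ccl4 and Xcl1 were at least 2-fold higher in every graft library than in blood of recipients of that organ. Of all genes tested, between 13.1% (kidney TIL) and 30.5% (liver PC) were called higher in these comparisons. Xcl1 was at most 57.5 CPM in the CD8 gate of blood and between 295 and 608 CPM in grafts. Ccl5 was already high in blood and was not called higher in any of the 5 graft libraries. The same upward ratios of Ccl3, Ccl4 and Xcl1 were also present in the macrophage and neutrophil gates of the heart and liver libraries, so they were not limited to the CD8 gate. In those gates 17.4% to 38.6% of genes tested were called higher.

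**Figure D1:**
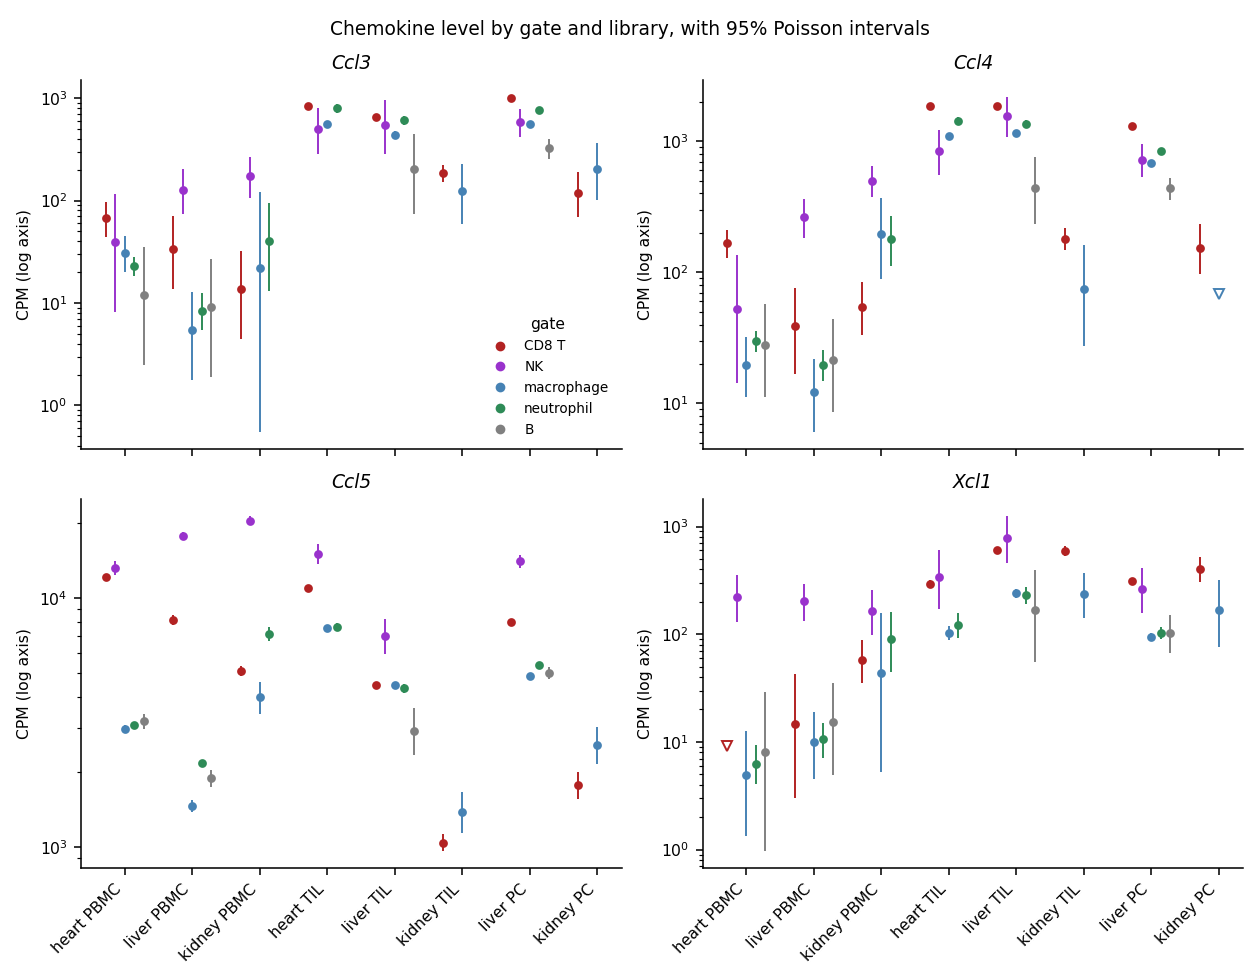
Level of each ligand (CPM, log axis) by library and gate, for gates of at least 20 cells; points are the summed level and lines the 95% Poisson interval, and open triangles mark the upper limit where no UMI was counted. In the CD8 gate, Xcl1 is at 57.5 CPM or less in the 3 PBMC libraries and at 295 CPM or more in the 5 TIL and PC libraries, while Ccl5 is between 1040.4 and 12096 CPM in all 8. Heart TIL and liver TIL are shown as labelled.

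Xcl1 encodes lymphotactin, the ligand of XCR1. No Xcl1 UMI was counted in the 329 CD8-gated cells of heart PBMC, against an upper limit of 9.15 CPM, and the level was 14.6 (3.005 to 42.6) CPM in liver PBMC and 57.5 (35.6 to 87.8) CPM in kidney PBMC. In TIL it was 295 (275 to 315) CPM as labelled heart, 608 (573 to 644) CPM as labelled liver and 592 (533 to 656) CPM in kidney. Liver PC held 309.8 (299 to 321) CPM and kidney PC 399 (302 to 517) CPM. The 5 graft libraries did not overlap the 3 blood libraries, and neighbours in the order whose intervals overlapped were labelled liver TIL with kidney TIL, kidney PC with liver PC, liver PC with labelled heart TIL, and the blood libraries among themselves except heart with kidney. The share of all genes that lie apart in this way is not given here. Of CD8-gated cells thinned to 500 UMIs, 16.95% (14.3 to 19.8) held an Xcl1 UMI in kidney TIL, 15.6% (11.05 to 21.1) in kidney PC, 12.6% (11.05 to 14.2) in labelled liver TIL, 8.29% (7.26 to 9.42) in labelled heart TIL and 7.22% (6.51 to 7.99) in liver PC. Unthinned shares were 23.6%, 18.3%, 22.5%, 14.2% and 18.2% in the same order. B cells, which should lack Xcl1, held it in 4.81% (1.58 to 10.9) of cells in liver PC at a median of 1850 UMIs, against 1698 UMIs for CD8-gated cells, so that the thinned share of the CD8 gate there lay within the interval of the B gate.

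Ccl3 encodes MIP-1α. In the CD8 gate of blood it was 66.98 (44.1 to 97.5) CPM for heart recipients, 33.99 (13.7 to 70.04) CPM for liver and 13.7 (4.44 to 31.9) CPM for kidney. TIL held 846 (812 to 880.4) CPM as labelled heart, 657 (621 to 695) CPM as labelled liver and 185 (152 to 222) CPM in kidney. Liver PC were at 1005 (986 to 1025) CPM and kidney PC at 119 (69.4 to 191) CPM. Liver PC and both TIL libraries of uncertain label were thus well above the kidney grafts, and kidney PC overlapped kidney TIL above it and heart PBMC below it. After thinning, 30.6% (29.3 to 31.9) of CD8-gated cells of liver PC held a Ccl3 UMI and 17.3% (10.6 to 25.97) of B cells, whereas in kidney TIL the CD8 share was 5.298% (3.81 to 7.14).

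Ccl4 encodes MIP-1β. Its level in the CD8 gate was 166 (129 to 211) CPM in heart PBMC, 38.85 (16.8 to 76.6) CPM in liver PBMC and 54.7 (33.4 to 84.5) CPM in kidney PBMC. As labelled, heart TIL held 1844 (1794 to 1895) CPM and liver TIL 1861 (1800.4 to 1923) CPM, and kidney TIL held 179.9 (148 to 217) CPM. PC were at 1299 (1277 to 1321) CPM in liver and 154 (96.6 to 233) CPM in kidney. The TIL libraries labelled heart and liver overlapped, and kidney TIL, heart PBMC and kidney PC overlapped one another, so a kidney graft reached the Ccl4 level of blood from heart recipients. Thinned shares with a Ccl4 UMI were 46.8% (44.9 to 48.8) in labelled heart TIL, 39.5% (37.2 to 41.9) in labelled liver TIL, 35.4% (34.1 to 36.8) in liver PC and 6.49% (4.84 to 8.49) in kidney TIL.

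Ccl5 encodes RANTES, which effector and memory T cells and NK cells keep at high level. CD8-gated cells of blood held 12096 (11759 to 12440.4) CPM for heart, 8159 (7773 to 8558) CPM for liver and 5064 (4836 to 5301) CPM for kidney recipients. In TIL the level was 10981 (10859.6 to 11104) CPM as labelled heart, 4469.7 (4375 to 4565) CPM as labelled liver and 1040.4 (961 to 1124) CPM in kidney. PC of liver held 7979 (7925 to 8034) CPM and PC of kidney 1765 (1554 to 1997) CPM. Heart recipients had the highest blood level and kidney TIL the lowest level of all, and of neighbours in the order only liver PBMC and liver PC overlapped. Ccl5 UMIs were found in nearly every cell type: in heart PBMC 82.4% of B cells, at a median of 796 UMIs, held at least 1 against 97.6% of CD8-gated cells, at 1035 UMIs. Thinned, the B share was 68.8% (63.02 to 74.2) there and 73.1% (63.5 to 81.3) in liver PC. Because of this background, shares of Ccl5-positive cells are not read as shares of expressing cells.

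Graft libraries were next set against blood of the same organ, gate by gate. In CD8-gated cells of labelled heart TIL over heart PBMC, Ccl3 had a log2 ratio of 3.64 (3.11 to 4.26), Ccl4 of 3.46 (3.12 to 3.84) and Ccl5 of -0.14 (-0.18 to -0.10), and Xcl1 was at least 39.6-fold higher against a floor of 3 counts in the blood sum. So 3 of the 4 ligands were called higher and 0 lower, where 23.9% of 9970 genes tested were called higher and 8.99% lower. For labelled liver TIL over liver PBMC the log2 ratios were 4.23 (3.23 to 5.59) for Ccl3, 5.55 (4.602 to 6.79) for Ccl4, -0.87 (-0.94 to -0.79) for Ccl5 and 5.29 (3.83 to 7.66) for Xcl1, the last against 3 blood UMIs. Again 3 of 4 were called higher and 0 lower, beside 11.4% of genes called lower and 19.7% of 9181 genes. Kidney TIL over kidney PBMC, which does not depend on the uncertain labels, gave 3.66 (2.49 to 5.41) for Ccl3, 1.699 (1.02 to 2.48) for Ccl4, -2.28 (-2.42 to -2.15) for Ccl5 and 3.34 (2.73 to 4.08) for Xcl1. Here Ccl5 was called lower, among 13.2% of 6774 genes, and the other 3 higher, among 13.1%.

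The dissociated grafts gave the same order of directions. Liver PC over liver PBMC had log2 ratios of 4.85 (3.84 to 6.201) for Ccl3, 5.03 (4.08 to 6.28) for Ccl4, -0.03 (-0.10 to 0.04) for Ccl5 and 4.32 (2.86 to 6.69) for Xcl1, and 3 of 4 were called higher, beside 30.5% of 12500 genes called higher and 10.4% lower. Kidney PC over kidney PBMC had 3.03 (1.62 to 4.92), 1.48 (0.55 to 2.44), -1.52 (-1.72 to -1.33) and 2.78 (2.05 to 3.59), so that 3 were called higher and Ccl5 lower, beside 14.8% of genes called higher and 19.3% lower. The blood library of an organ is shared by its TIL and PC comparisons, so these are not separate measurements of blood. With the labels of heart TIL and liver TIL exchanged, Ccl3, Ccl4 and Xcl1 were still called higher in both organs, while Ccl5 went to -1.44 for heart, past the fold, and to 0.43 for liver. With 1 UMI as the CD8 gate the heart value of Ccl5 was 0.52.

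Cells of other gates moved with the CD8 gate. Macrophage and neutrophil gates could be compared with blood for labelled heart TIL, labelled liver TIL and liver PC, with at least 50 cells on both sides, and Ccl3, Ccl4 and Xcl1 were called higher in 6 of these 6 comparisons and Ccl5 in 5, the other being 0.996 (0.93 to 1.06) in neutrophils of labelled liver TIL. With the labels exchanged, Ccl3, Ccl4 and Xcl1 kept 6 calls and Ccl5 had 4, since for heart it was at 0.59 (0.52 to 0.65) in the macrophage and 0.49 (0.42 to 0.55) in the neutrophil gate. The shares of genes called higher were 38.6%, 17.9% and 25.6% in the macrophage gate and 36.2%, 17.4% and 23.3% in the neutrophil gate of these libraries. In macrophage-gated cells of labelled heart TIL over heart PBMC, Ccl3 was at 4.15 (3.62 to 4.83), Ccl4 at 5.73 (5.09 to 6.61), Ccl5 at 1.35 (1.29 to 1.41) and Xcl1 at 4.13 (3.002 to 6.27) on the log2 scale. In neutrophil-gated cells of liver PC over liver PBMC the values were 6.34 (5.92 to 7.15), 5.35 (5.04 to 5.83), 1.31 (1.27 to 1.35) and 3.18 (2.74 to 3.89) for Ccl3, Ccl4, Ccl5 and Xcl1. The Ccl3 and Ccl4 values lay above those of the CD8 gate there, with overlapping intervals. Even B cells of liver PC over liver PBMC had 4.997 (3.54 to 7.45) for Ccl3, 4.29 (3.27 to 5.704) for Ccl4, 1.397 (1.26 to 1.54) for Ccl5 and 2.67 (1.34 to 4.49) for Xcl1, beside 21.7% of genes. Ccl5 was therefore higher in graft than in blood in these gates, and at or below its blood level in the CD8 gate as labelled, where it was 0.43 for liver with the labels exchanged and 0.52 for heart with 1 UMI as the gate. Fewer expressing cells, less RNA per expressing cell and free RNA of other cells cannot be told apart in these sums, and their parts in the ratios were not tested.

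**Figure D2:**
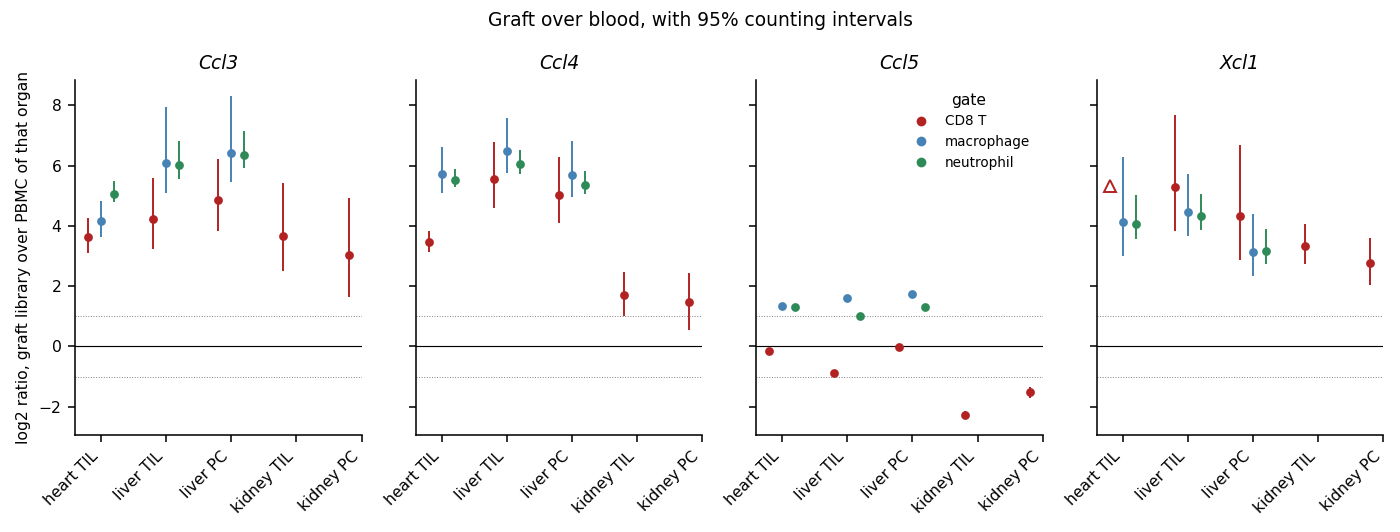
Log2 ratio of each ligand in a graft library over PBMC of recipients of that organ, in the CD8, macrophage and neutrophil gates with at least 50 cells on both sides; lines are 95% counting intervals, dotted lines the 2-fold limits, and the open triangle is the bound of at least 39.6-fold for Xcl1 against a blood count of 0. Ccl3, Ccl4 and Xcl1 lie above 0 in every gate drawn, while Ccl5 lies below 0 in the CD8 gate and above it in the other gates.

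The TIL libraries were next compared with one another. Labelled liver TIL over kidney TIL had CD8 log2 ratios of 1.82 (1.55 to 2.12) for Ccl3, 3.36 (3.097 to 3.66) for Ccl4, 2.102 (1.99 to 2.22) for Ccl5 and 0.04 (-0.13 to 0.21) for Xcl1. Labelled heart TIL over kidney TIL had 2.19 (1.92 to 2.48), 3.35 (3.08 to 3.64), 3.399 (3.29 to 3.52) and -1.004 (-1.19 to -0.82). The 3 CC chemokines were thus called higher in both libraries than in kidney TIL, where 21.6% and 20.4% of genes were, a statement that does not depend on which library is which organ. Xcl1 was called lower in labelled heart TIL, just past the fold, beside 11.1% of genes, and was level with kidney TIL in labelled liver TIL. Labelled liver TIL over labelled heart TIL had -0.36 (-0.46 to -0.27) for Ccl3, 0.01 (-0.05 to 0.07) for Ccl4, -1.297 (-1.33 to -1.26) for Ccl5 and 1.04 (0.91 to 1.17) for Xcl1. Ccl5 was called lower and Xcl1 higher, beside 4.7% and 5.51% of genes, and with the labels exchanged both directions turn.

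Within the graft libraries, Xcl1 was higher in the CD8 gate than in the macrophage gate, and in liver PC also than in the neutrophil, CD4 and B gates. In liver PC it was 309.8 (299 to 321) CPM in the CD8 gate, 95.1 (88.1 to 103) CPM in the macrophage gate, 104 (90.9 to 117) CPM in the neutrophil gate, 90.5 (57.4 to 136) CPM in the CD4 gate and 102 (66.8 to 149.8) CPM in B cells. The CD8 gate was called higher than each of these 4, whose intervals all overlapped, with 2.98% of genes called higher over macrophages, 4.88% over neutrophils, 21.3% over CD4 T cells and 23.5% over B cells. The 49 NK cells of liver PC, too few for a ratio here, held 264 (159 to 412) CPM, which overlapped the CD8 gate, and the dendritic gate held 129 (99.7 to 165) CPM. Over macrophage-gated cells the CD8 log2 ratio of Xcl1 was 1.51 (1.29 to 1.76) in labelled heart TIL, 1.34 (1.18 to 1.51) in labelled liver TIL, 1.32 (0.66 to 2.07) in kidney TIL, 1.69 (1.58 to 1.82) in liver PC and 1.25 (0.23 to 2.45) in kidney PC. In all 5 graft libraries it was thus called higher in the CD8 gate, beside 4.38%, 7.77%, 17.3%, 2.98% and 10.6% of genes in that order. Blood did not show this order. In kidney PBMC the CD8 level of 57.5 (35.6 to 87.8) CPM overlapped the neutrophil level of 89.4 (44.6 to 159.9) CPM, in liver PBMC the CD8 gate held 3 UMIs and overlapped the macrophage, neutrophil and B gates, and in heart PBMC it held 0 UMIs where the neutrophil gate held 6.297 (4.03 to 9.37) CPM.

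Ccl3 and Ccl4 set the CD8 gate apart from the macrophage, neutrophil and CD4 gates less than Xcl1 did in liver PC. This did not hold against B cells. In liver PC, Ccl3 was 1005 (986 to 1025) CPM in the CD8 gate, 764 (729 to 801) CPM in the neutrophil gate, 669 (572 to 777) CPM in the CD4 gate, 583 (420.0 to 788) CPM in the 49 NK cells, 561 (544 to 578) CPM in the macrophage gate and 322 (256 to 400.2) CPM in B cells. Ccl4 followed with 1299 (1277 to 1321), 845 (808 to 883), 893 (781 to 1017), 721 (539 to 946), 679.9 (661 to 699) and 436 (359 to 526) CPM in the same gates. For both genes the CD8 gate was highest and B cells lowest, with CD8 over B log2 ratios of 1.64 (1.33 to 1.97) and 1.57 (1.304 to 1.86), and CD8 over neutrophil ratios of 0.39 (0.32 to 0.47) and 0.62 (0.55 to 0.69) that did not pass 2-fold. In labelled heart TIL the Ccl3 level of the neutrophil gate, 793 (716 to 876) CPM, overlapped that of the CD8 gate.

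Counting each ligand against Trac, a T cell receptor transcript, in the same cells gave another view of the non-T gates. Per 100 Trac UMIs in liver PC, Xcl1 stood at 30.2 (28.99 to 31.4) in the CD8 gate, 22.9 (21.1 to 24.9) in the macrophage gate, 23.004 (19.9 to 26.5) in the neutrophil gate and 23.9 (14.9 to 36.9) in B cells, and at 38.3 (28.3 to 51.4) in the dendritic gate. Ccl3 stood at 97.9 (95.3 to 101), 135 (129 to 142), 169.9 (157 to 183) and 75.2 (55.8 to 101). Macrophage and neutrophil gates therefore held more Ccl3 per Trac UMI than B cells, whereas their Xcl1 per Trac UMI overlapped that of B cells. Ccl4 stood at 127 (123 to 130), 164 (156 to 171), 188 (174 to 203) and 102 (77.5 to 134) in the same order. Ccl5 stood at 777 (761 to 793), 1173 (1130 to 1218), 1194 (1121 to 1273) and 1160 (953 to 1424). For Ccl5, B cells thus lay above the CD8 gate and overlapped the macrophage and neutrophil gates. A value above the CD8 gate was therefore not limited to those gates, and its source was not tested. In labelled liver TIL, Xcl1 per 100 Trac UMIs was 64.5 (59.8 to 69.4) in the CD8 gate and 64.2 (56.5 to 72.8) in the macrophage gate, and Ccl3 was 69.7 (64.8 to 74.98) and 118 (106 to 131). The Xcl1 intervals of these gates overlapped there and the Ccl3 intervals did not. This did not extend to every gate and library, since Xcl1 was lower in the neutrophil gate of labelled liver TIL, at 47.4 (38.2 to 58.7), and in labelled heart TIL it was 24.7 (22.9 to 26.6) in the CD8 and 18.1 (15.4 to 21.1) in the macrophage gate.

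In blood, Xcl1 was higher in NK cells than in the CD8 gate. NK cells had 223 (130.1 to 358) CPM in heart PBMC, 203 (133 to 295) CPM in liver PBMC and 163 (98.3 to 255) CPM in kidney PBMC, from 77, 155 and 130 cells. Their intervals overlapped, and the CD8 gate was called lower in each: at least 30-fold in heart PBMC against a floor of 3 counts, and by log2 ratios of -3.71 (-6.16 to -2.097) in liver and -1.49 (-2.47 to -0.53) in kidney, where 7.44%, 8.15% and 8.4% of genes were called lower. The CD8 sums held 3 Xcl1 UMIs in liver PBMC and 21 in kidney PBMC. In heart PBMC the 17 Xcl1 UMIs of NK cells came from 5 cells. Ccl5 in NK cells of blood was 13149 (12347 to 13989.6), 17704 (16997 to 18433) and 20417 (19604 to 21255) CPM for heart, liver and kidney recipients, the opposite order to that of the CD8 gate. Ccl4 in NK cells was 52.5 (14.3 to 135), 263 (183 to 365) and 498 (378 to 644) CPM and Ccl3 39.4 (8.13 to 115), 128 (74.3 to 204) and 172 (105 to 265) CPM. Both were lowest in heart recipients, though for Ccl3 the heart interval overlapped both others. The heart values rest on 4 Ccl4 and 3 Ccl3 UMIs in 77 cells. Of all genes tested, 15.4% were called lower in heart than in liver NK cells and 20.5% lower than in kidney NK cells.

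Among CD8-gated cells Xcl1 was concentrated. At 500 UMIs per cell, 18 of 1768 cells of labelled liver TIL held at least 5 Xcl1 UMIs and the highest held 33, in a group whose median was 0. Liver PC had 20 of 4803 such cells, with a maximum of 26, and labelled heart TIL 10 of 2581, with a maximum of 17. Kidney TIL had 5 of 755, with a maximum of 15. Most cells thus held none and a few held many. Ccl5 was spread wide, with a median of 5 UMIs per cell in labelled heart TIL, 3 in liver PC, 2 in labelled liver TIL and 0 in kidney TIL. Ccl4 had at least 5 UMIs in 75 cells of labelled heart TIL, 58 of labelled liver TIL and 109 of liver PC, and in 0 of kidney TIL. Its maxima were 24, 30, 28 and 4 in that order, and those of Ccl3 were 10, 13, 13 and 6. Both Ccl3 and Ccl4 had a median of 0 in each of these libraries, so a median of 0 with a few high cells was not particular to Xcl1.

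Crtam encodes an adhesion receptor of activated CD8 T and NK cells and Tnfrsf9 encodes the costimulatory receptor 4-1BB. Co-detection with them was taken in thinned CD8-gated cells and set against the product of the separate shares. In labelled liver TIL 40% (24.9 to 56.7) of the 40 cells with a Crtam UMI held Xcl1, against 11.9% (10.4 to 13.5) of those without, 3.19 times the product. Liver PC had 19.7% (11.2 to 30.9) of 71 cells against 7.04% (6.32 to 7.803), 2.73 times. The intervals did not overlap in either library, whereas in kidney TIL 29.4% (10.3 to 55.96) of 17 Crtam cells against 16.7% (14.05 to 19.6) overlapped. Labelled heart TIL had 25 Crtam cells and 0.96 times the product, a value that was 2.46 with another thinning seed and 2.05 without thinning, and which this depth does not settle.

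With Tnfrsf9, the share of cells with Xcl1 was 23.9% (16.4 to 32.8) against 11.8% (10.3 to 13.4) in labelled liver TIL, and 14.6% (10.05 to 20.1) against 6.896% (6.18 to 7.67) in liver PC. In kidney TIL it was 29.3% (16.1 to 45.5) against 16.2% (13.6 to 19.2), and in labelled heart TIL 9.92% (5.23 to 16.7) against 8.21% (7.16 to 9.37). The shares differed beyond counting error in the first pair of libraries, and the intervals overlapped in the others. Without thinning they also lay apart in labelled heart TIL, at 22.7% (17.5 to 28.7) against 13.3% (11.98 to 14.8), so the call there depends on depth. Cells with both partners were few: 5 of 8 held Xcl1 in labelled liver TIL and 5 of 9 in liver PC, whereas of cells with neither 184 of 1623 and 308 of 4535 did.

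The CC chemokines followed Tnfrsf9 in part. Ccl4 was found in 65.3% (56.1 to 73.7) of Tnfrsf9 cells against 45.9% (43.95 to 47.9) of others in labelled heart TIL, in 51.3% (41.7 to 60.8) against 38.7% (36.4 to 41.1) in labelled liver TIL and in 46.6% (39.6 to 53.7) against 34.9% (33.6 to 36.3) in liver PC. Ccl3 was found in 39.3% (32.6 to 46.3) against 30.2% (28.9 to 31.5) in liver PC. The Ccl3 intervals overlapped in the 3 TIL libraries, as did those of Ccl4 in kidney TIL, 7.32% (1.54 to 19.9) against 6.44% (4.76 to 8.5003). Without thinning, the Ccl3 intervals overlapped in labelled heart TIL alone of these 3. With Crtam, the intervals of Ccl3 and Ccl4 overlapped in all 4 graft libraries named, though without thinning those of Ccl4 lay apart in labelled liver TIL, kidney TIL and liver PC and those of Ccl3 in labelled liver TIL, and Ccl4 in labelled liver TIL was 57.5% (40.9 to 72.96) against 39.1% (36.8 to 41.5). Ccl5 was found in 79.4% to 94.6% of thinned cells of labelled heart TIL, labelled liver TIL and liver PC, which leaves its ratio to the product little room above 1. In kidney TIL, where 34.7% of cells held it, it was at 1.41 times the product with Tnfrsf9 and 1.36 times with Crtam, with overlapping intervals.

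**Figure D3:**
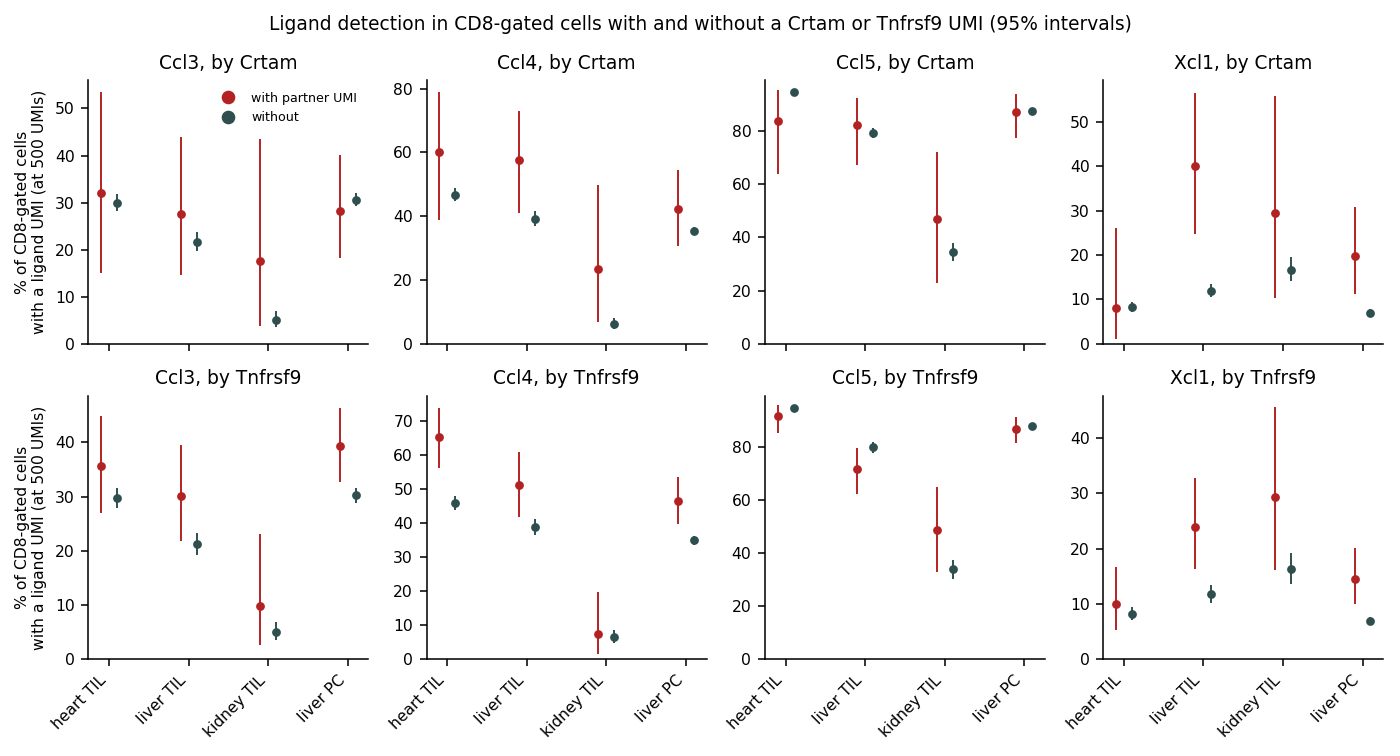
Share of CD8-gated cells with a UMI of each ligand (percent, cells thinned to 500 UMIs) among cells with and without a UMI of Crtam (upper row) or Tnfrsf9 (lower row) in 4 graft libraries, with 95% Clopper-Pearson intervals. For Xcl1 the cells with a partner UMI lie above those without in the library labelled liver TIL and in liver PC; for Ccl5 the intervals of each pair overlap in all 4 libraries.

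Ligands were also set against one another in these cells. Ccl3 and Ccl4 were found together 1.45 times as often as the product in liver PC, 1.42 times in labelled liver TIL, 1.28 times in labelled heart TIL and 3.47 times in kidney TIL. In liver PC 51.4% (48.8 to 53.98) of Ccl3 cells held Ccl4, against 28.4% (26.9 to 29.97) of others. Xcl1 was less frequent in cells with Ccl5 than in those without it, with 6.17% (5.46 to 6.94) against 14.8% (12.02 to 17.9) in liver PC and 7.62% (6.595 to 8.74) against 20.1% (13.8 to 27.8) in labelled heart TIL. The same pair of shares in labelled liver TIL was 11.4% (9.78 to 13.2) and 17.03% (13.3 to 21.3). Without thinning, the intervals lay apart in liver PC alone. In kidney TIL the corresponding shares were 19.8% (15.2 to 25.2) and 15.4% (12.3 to 18.9), which overlapped. Xcl1 was found with Ccl3 0.79 times as often as the product in labelled heart TIL, 1.08 times in liver PC, 1.49 times in labelled liver TIL and 3.097 times in kidney TIL. In labelled heart TIL the shares with and without Ccl3 overlapped, at 6.58% (4.94 to 8.56) and 9.03% (7.74 to 10.4), and without thinning the ratio was 1.08.

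CD8-gated cells with an Xcl1 UMI were then compared with those without, over genes with at least 30 UMIs in the former. A gene low in Xcl1 cells could not enter this ranking, so the first ranks are given as a description. There were 366 such cells in labelled heart TIL, 397 in labelled liver TIL, 178 in kidney TIL and 872 in liver PC, and they were deeper, with medians of 1127, 1091, 780.5 and 2112.5 UMIs against 885, 829, 693 and 1631. Ccl1, a CC chemokine that binds CCR8, ranked first in labelled liver TIL, kidney TIL and liver PC, with log2 ratios of 2.16 (1.72 to 2.67), 2.601 (1.79 to 3.52) and 2.77 (2.49 to 3.32). In labelled heart TIL, where Ccl1 had only 26 UMIs in Xcl1 cells and was not ranked, its ratio was 3.26 (2.43 to 4.75), and the top rank was taken by the immunoglobulin gene Ighg2c at 1.57 (1.204 to 1.97). Ifng, which encodes interferon gamma, was among the first 10 in all 3 TIL libraries, at 1.22 (0.97 to 1.48), 1.46 (1.22 to 1.71) and 1.59 (1.16 to 2.02), and stood at 0.48 (0.33 to 0.65) in liver PC.

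Crtam was at 2.11 (1.502 to 2.84) in labelled liver TIL and 1.303 (1.03 to 1.64) in liver PC, among the first 10 in both, and at 1.38 (0.20 to 2.61) in kidney TIL. Tnfrsf9 was at 1.02 (0.71 to 1.34) in labelled liver TIL and 1.02 (0.84 to 1.21) in liver PC. Myc, Srm, Nolc1 and Rrp9, genes of growth and ribosome making, stood among the first 10 of labelled liver TIL, and Cd160, a receptor of cytotoxic lymphocytes, at 1.87 (1.17 to 2.61) in kidney TIL. Ccl5 went the other way, with -0.58 (-0.63 to -0.53) in labelled heart TIL, -0.52 (-0.60 to -0.45) in labelled liver TIL and -0.77 (-0.80 to -0.74) in liver PC, against 0.25 in kidney TIL, where the interval included 0. The granzyme genes Gzmb and Gzma were at -0.46 (-0.49 to -0.43) and -0.59 (-0.63 to -0.55) in liver PC and at -0.45 (-0.52 to -0.38) and -0.44 (-0.51 to -0.36) in labelled heart TIL. They were at -0.03 (-0.11 to 0.05) and -0.36 (-0.51 to -0.22) in labelled liver TIL. In kidney TIL both intervals included 0, at -0.24 (-0.62 to 0.13) and -0.12 (-0.58 to 0.32). Ccl3 was at 2.597 (2.02 to 3.23) in kidney TIL and 0.79 (0.63 to 0.96) in labelled liver TIL. It was at 0.27 (0.20 to 0.33) in liver PC and 0.13 (-0.02 to 0.27) in labelled heart TIL. Of the CD8 gate genes, Cd8a stood at -0.01 (-0.08 to 0.06) in liver PC and -0.19 (-0.33 to -0.05) in labelled heart TIL. Its intervals included 0 in the other TIL libraries. Cd8b1 was below 0 beyond counting error in each library. Kidney TIL had -0.25 (-0.44 to -0.06) for Cd8b1 and liver PC -0.27 (-0.33 to -0.21). The TIL libraries of uncertain label had -0.37 (-0.49 to -0.26) as labelled heart and -0.26 (-0.38 to -0.13) as labelled liver. The part of the higher depth of Xcl1 cells in these ratios was not tested.

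**Figure D4:**
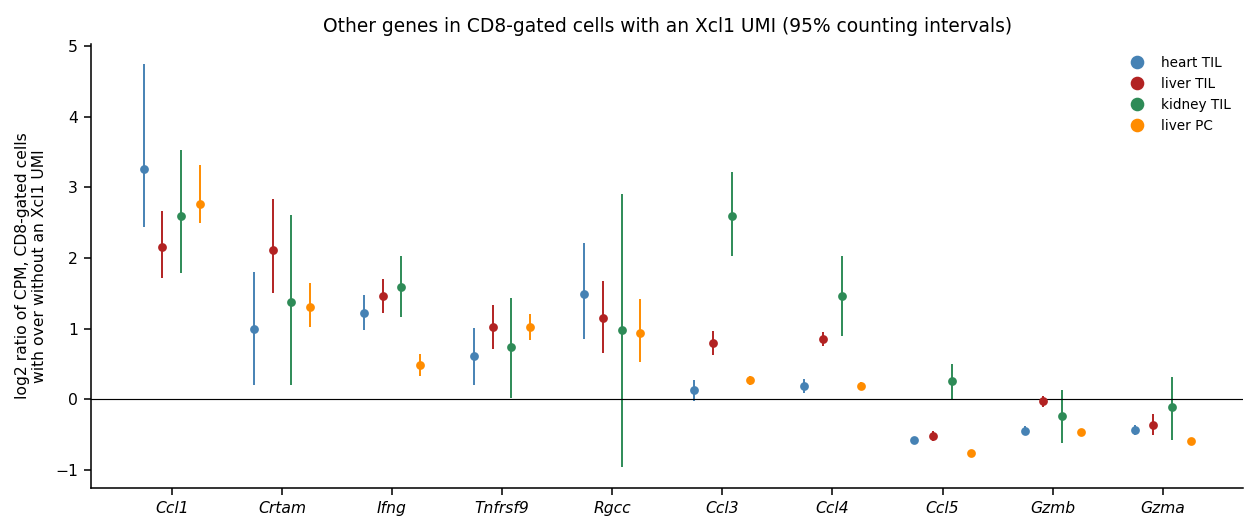
Log2 ratio of CPM in CD8-gated cells with an Xcl1 UMI over those without, for 10 genes in 4 graft libraries, with 95% counting intervals. The points of Ccl1, Crtam, Ifng and Tnfrsf9 lie above 0 in the 4 libraries, and those of Ccl5 lie below 0 in 3 of them and above it in kidney TIL, where the interval includes 0.

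The genes most like each ligand were sought over 30 pairs of gate and library, as a description, since gates of a library share cells, depth and free RNA. Ccl5 went most with Gzma (Pearson r = 0.89 of log2 CPM), Klrd1 (0.86), which encodes the NK receptor subunit CD94, and Id2 (0.83), a transcriptional regulator of effector and NK cells, of 10721 genes ranked. Xcl1 went most with Rrp1 (0.84), St13 (0.82) and Nop16 (0.82). Ccl3 went most with Tpi1 (0.86), Snord118 (0.86) and Prelid3b (0.85), and Ccl4 with Hist1h2bk (0.85) and Ints10 (0.83). Among the members r was 0.79 between Ccl3 and Ccl4, 0.67 between Ccl3 and Xcl1 and 0.07 between Ccl5 and Xcl1. Xcr1, with 69 UMIs over these pairs, was not ranked.

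Other genes of activated T cells were read in the same CD8 comparisons of TIL with PBMC. Of the 24 effector genes listed, 9 of 22 tested were called higher in labelled heart TIL, 12 of 22 in labelled liver TIL and 7 of 18 in kidney TIL, with 0, 1 and 5 called lower, and list medians of 0.62, 1.39 and -0.01 on the log2 scale beside 0.34, 0.12 and 0.06 over all genes tested. With a floor of 3 counts for genes that had no UMI on 1 side, the list medians were 0.61, 0.94 and -0.01. Of all genes tested 23.9%, 19.7% and 13.1% were called higher and 8.99%, 11.4% and 13.2% lower in these comparisons. Ifng, Tnfrsf9, the costimulatory genes Icos and Tnfrsf4 and the checkpoint gene Pdcd1 were called higher in 3 of 3, and Egr2, Havcr2, Nr4a1 and Prf1 in 2 of 3. For labelled heart, labelled liver and kidney TIL, Ifng was at 2.54, 4.23 and 1.89 and Tnfrsf9 at 1.26, 3.18 and 1.58. Neither the lists here nor the other chemokines below were read with the labels exchanged. Gzma was called lower in 2, at -1.45 in labelled liver TIL and -2.81 in kidney TIL. Of 10 genes of naive and memory cells, 5 of 9 tested, 9 of 9 and 6 of 8 were called lower and 0 higher, with medians of -1.54, -2.01 and -1.65, where 8.99%, 11.4% and 13.2% of all genes were called lower. Ccr7, a homing receptor of resting T cells, was at -2.25, -2.48 and -1.51, with Il7r and S1pr1 also lower in 3 of 3 and Klf2, Lef1 and Tcf7 in 2. The effector list also rose in other gates of labelled heart TIL, labelled liver TIL and liver PC over blood. In the macrophage gate 15 of 21, 17 of 20 and 18 of 22 were called higher, beside 38.6%, 17.9% and 25.6% of all genes. The neutrophil gate had 17 of 20, 16 of 19 and 18 of 22, beside 36.2%, 17.4% and 23.3%. B cells of liver PC had 11 of 14, beside 21.7%.

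Of 22 other chemokine genes, 12 of 16 tested, 12 of 14 and 7 of 9 were called higher and 2, 1 and 2 lower in labelled heart, labelled liver and kidney TIL, where 23.9%, 19.7% and 13.1% of all genes were called higher. Many had no blood UMI: list medians of 3.47, 5.45 and 4.38 became 0.85, 3.68 and 2.67 when such genes were set at their bound. Ccl1, Ccl8, Ccl12, Cxcl9 and Cxcl16 were called higher in 3 of 3 and Ccl2, Ccl7, Cxcl1, Cxcl3 and Cxcl10 in 2, while Ccl6, a myeloid chemokine, was called lower in 3, at -1.96, -1.34 and -2.11. Cxcl2, a neutrophil attractant, was called higher in labelled heart and liver TIL and lower in kidney TIL, with 0 UMIs there. Most of these, such as Ccl8, Ccl12 and Cxcl9, are known as products of myeloid cells, and macrophage markers stood at 3488 to 9341 CPM in the CD8 gate of TIL and 878 to 7688 CPM in that of PBMC; their part in the counts was not tested.

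Ccr1, a receptor of CCL3 and CCL5, was lower in macrophage-gated cells of grafts than of blood. It was 602 (549 to 657) CPM in heart PBMC, 405 (365 to 449) CPM in liver PBMC, 142 (125 to 160.0) CPM in labelled heart TIL, 325 (299 to 354) CPM in labelled liver TIL and 179 (169 to 189) CPM in liver PC. The blood level was not particular to the macrophage gate. In heart and liver PBMC the B gate held 443 and 384 CPM of Ccr1, and the neutrophil gate 667 and 500 CPM. The log2 ratios over blood were -2.08 (-2.31 to -1.87) for labelled heart TIL, -0.32 (-0.51 to -0.12) for labelled liver TIL, which did not pass 2-fold, and -1.18 (-1.35 to -1.01) for liver PC. With the labels exchanged, Ccr1 was at -0.89 (-1.07 to -0.71) for heart, which did not pass 2-fold, and at -1.51 (-1.75 to -1.28) for liver, which did. Other gates varied. Labelled heart TIL was at -2.02 (-2.36 to -1.71) in the CD8 and -1.74 (-2.05 to -1.45) in the neutrophil gate. Liver PC was at -1.15 (-1.63 to -0.64) in the CD8 gate, -2.202 (-2.96 to -1.54) in B cells and -0.91 (-1.05 to -0.77) in the neutrophil gate. Labelled liver TIL was at -0.19 (-0.69 to 0.34) in the CD8 and -0.31 (-0.52 to -0.11) in the neutrophil gate. Kidney CD8 gates were at -2.20 (-4.14 to -0.79) in TIL and 0.03 (-1.62 to 1.48) in PC. After the exchange, the neutrophil gate was at -0.72 (-0.93 to -0.53) for heart, not past 2-fold, and -1.32 (-1.64 to -1.03) for liver. For heart the exchange sets 157 CPM against 310 CPM of blood in the CD8 gate. In the macrophage gate 10.3% of genes were called lower in labelled heart TIL and 8.14% in liver PC.

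Ccrl2, an atypical receptor that binds chemerin and is strong in activated neutrophils, was 20.7 (15.8 to 26.7) CPM in neutrophil-gated cells of liver PBMC, 677 (611 to 749) CPM in labelled liver TIL and 575 (545 to 607) CPM in liver PC. The heart libraries held 176 (162 to 189) CPM in PBMC and 438 (381 to 500.5) CPM in labelled TIL. All 3 graft libraries were called higher than their blood, labelled heart TIL at 1.31 (1.09 to 1.54) and labelled liver TIL and liver PC at 4.96 (4.63 to 5.45) and 4.73 (4.42 to 5.19) on the log2 scale. Of all genes 36.2%, 17.4% and 23.3% were called higher in these comparisons. The liver values were not particular to neutrophils, since labelled liver TIL and liver PC over blood had 4.46 (3.69 to 5.65) and 4.02 (3.25 to 5.198) in the macrophage gate and 3.62 (2.15 to 5.99) and 3.23 (1.77 to 5.59) in the CD8 gate, the last pair against 3 blood UMIs. Labelled heart TIL over blood was not called, at 0.05 (-0.24 to 0.34) in the macrophage and 0.51 (0.01 to 1.06) in the CD8 gate. With the labels exchanged, the neutrophil gate was at 1.94 (1.76 to 2.13) for heart and 4.33 (3.98 to 4.84) for liver. Ccr3, the eotaxin receptor that also binds CCL5, had 113 UMIs in all cells kept, 28 of them in kidney PBMC, and Ackr2, a decoy receptor of CC chemokines, had 14.

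Xcr1 was rare everywhere. It was found in 53 cells, 29 of them in liver PC with 45 UMIs, 0.290% (0.194 to 0.416) of 10000 cells. Labelled heart TIL, labelled liver TIL and kidney TIL each held 6 such cells, of 9668, 9337 and 2005, kidney PC 5 of 795 and kidney PBMC 1 of 1143. In liver PBMC it was found in 0 of 6822 cells, which by a floor of 3 counts allows a share of up to 0.0440% with a UMI at this depth (exact 95% upper limit 0.0541%), and heart PBMC listed no Xcr1 row for its 7772 cells. No library listed a gene without a UMI, so this missing row stands for 0 Xcr1 cells (exact 95% upper limit 0.0475%). Over all cells kept, Xcr1 was 2.35 (1.71 to 3.14) CPM in liver PC, 5.41 (2.33 to 10.7) CPM in kidney TIL and 10.1 (3.28 to 23.6) CPM in kidney PC, and the kidney intervals overlapped.

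The 29 Xcr1 cells of liver PC had higher levels of several genes of conventional type 1 dendritic cells than the other cells there. Clec9a, a dead-cell receptor of these cells, was at 96.95 CPM (38.98 to 199.8) against 8.22 CPM in the other cells, Wdfy4, needed for cross-presentation, at 166 CPM (85.9 to 290.3) against 10.1 CPM, and Flt3, the receptor of the dendritic cell growth factor, at 166 CPM (85.9 to 290.3) against 2.72 CPM. Snx22 was at 69.3 CPM (22.5 to 162) against 0.8901 CPM, Cadm1 at 180.1 CPM (95.9 to 308) against 23.5 CPM, Naaa at 1329.6 CPM (1077 to 1624) against 247 CPM and Irf8, the transcription factor of the lineage, at 831 CPM (634 to 1069.7) against 193 CPM. These 7 were above the other cells beyond counting error, while Itgax, at 83.1 CPM (30.5 to 181) against 40.3 CPM, and Zbtb46, with 1 UMI, were not. T cell and chemokine genes were lower, with Trac at 249 CPM (148 to 394) against 753 CPM, Ccl5 at 2909 CPM (2528 to 3329.7) against 6629.5 CPM and Xcl1 at 96.95 CPM (38.98 to 199.8) against 209 CPM. Cd8a was at 388 CPM (258 to 560.5) against 528 CPM and Cd8b1 at 457 CPM (315 to 642) against 772 CPM. Of the 29 cells 14 passed the CD8 gate, 11 the dendritic gate and 7 the macrophage gate, against 4803, 166 and 3165 of all 10000 cells, so the share in the CD8 gate was close to that of the library. Clec9a itself was found in 147 cells of liver PC, 6 of which held Xcr1. Of the 24 Xcr1 cells in the other libraries 0 held Clec9a and 1 passed the dendritic gate, although labelled heart TIL had 51 Clec9a cells. The Xcr1 cells of liver PC were deep, with a median of 2383 UMIs against 1502 over the library, and their number sets the width of every interval here.

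**Figure D5:**
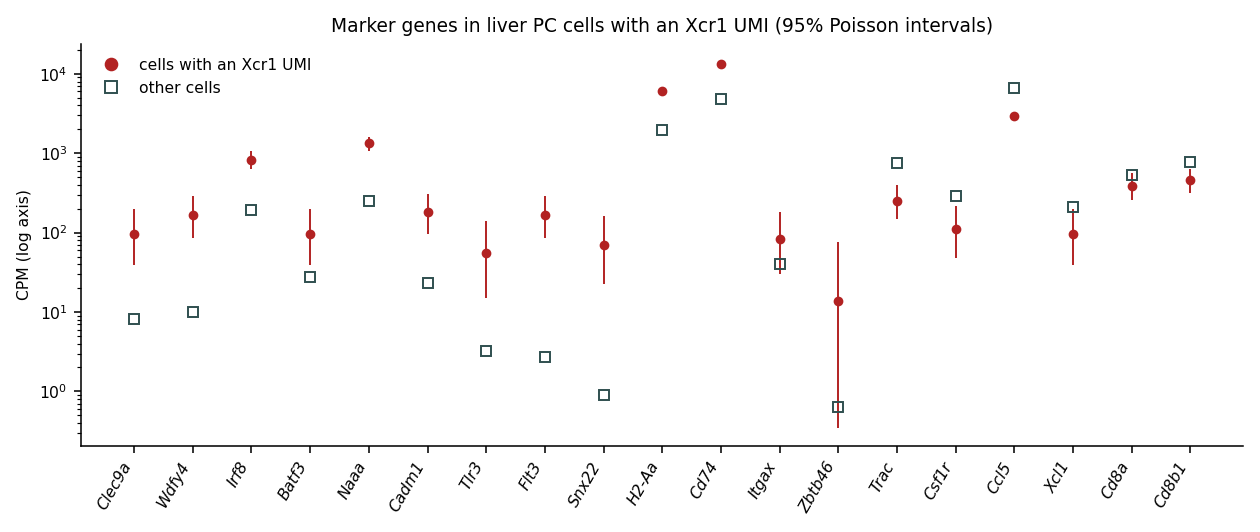
Level of dendritic, T cell, macrophage and chemokine genes (CPM, log axis) in the 29 liver PC cells with an Xcr1 UMI, with 95% Poisson intervals, and in the other cells of that library (open squares). Clec9a, Wdfy4, Flt3 and Snx22 stand more than 10-fold above the other cells, and Trac, Csf1r, Ccl5 and Xcl1 below them.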

How the data were processed

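Per the labels and the study's methods, the authors prepared Microwell-seq libraries, aligned reads with STAR to GRCm38, discarded multi-aligned reads, merged UMIs of a gene that were 1 edit apart and deposited tables of unnormalized UMI counts, each with 10000 barcodes. Strandedness is not given in the sources used here. Cells with at least 500 UMIs were kept, with no removal of doublets or free RNA. UMIs of each gene were summed per gate and library and scaled to CPM. Intervals were exact at 95% and ratio intervals were conditional on the sum of both counts. With 1 library per condition no test was run. Thinning used seed 0. Genes named were the members, their receptors, the 3 genes of highest likeness per member, the first 10 genes in Xcl1 cells and list genes past 2-fold in at least 2 of 3 TIL comparisons. Some genes that this rule names are not reported here. The members and lists were chosen with earlier results of these data known. The fold rule and co-detection were tested on simulated data, and thinning was checked to leave 500 UMIs in each kidney TIL cell. A gene of low count can pass the fold by counting error alone, so the shares of genes called hold such genes. Sequences came from RefSeq, with promoters matched for 3 of 5 members and no entry for Ccl4 and Ccl5. Alternatives changed the UMI floor, mitochondrial limit, gates, shared barcodes, deepest cells, pseudocount, count minimum, fold, thinning and the labels of heart and liver TIL. Wider NK and CD4 gates and the exchange in the macrophage and neutrophil gates were chosen after seeing the data. Python 3.11.15, numpy 2.4.6, scipy 1.17.1, pandas 2.3.3 and matplotlib 3.10.9 were used.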

Additional observations from a re-analysis of the deposited data

Results flagged for a closer look

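Ccl4 in the CD8 gate over NK cells of the same blood library had opposite directions, with a log2 ratio of 1.64 in heart PBMC and of -2.73 in liver PBMC and -3.16 in kidney PBMC. The difference between organs was not tested, since there was 1 library each, and the heart value rests on 4 Ccl4 UMIs in 77 NK cells.

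Ccl5 in the CD8 gate over the macrophage gate was positive in heart PBMC (2.03), liver PBMC (2.48), labelled heart TIL (0.54) and liver PC (0.71), and negative in kidney TIL (-0.41) and kidney PC (-0.54). In labelled liver TIL it was 0.0025 (-0.042 to 0.047), neither positive nor negative beyond counting error, and this would be the heart value with the labels exchanged. The difference was not tested either. The kidney macrophage gates held 109 and 84 cells, and in kidney PC Trac was as high in the macrophage gate as in the CD8 gate.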

How the results depend on the processing

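The 199 results were recomputed under the alternatives that bear on each, giving 1611 values, of which 1278 stayed within the counting interval or within 1.5 times a count, 330 moved further and 3 turned. Only a ratio past 2-fold in the main setting could count as turned. The changes of sign of Ccl5 for heart and liver given below count as moved. Over all alternatives the log2 ratio of CD8-gated TIL over PBMC ranged from 3.28 to 4.28 (heart), 3.92 to 5.35 (liver) and 2.81 to 4.37 (kidney) for Ccl3, from 3.21 to 4.25, 5.20 to 6.04 and 1.54 to 2.09 for Ccl4, and from 4.93 to 9.25, 4.25 to 9.33 and 2.75 to 4.51 for Xcl1, so these stayed past 2-fold. The fitted Xcl1 values rest on 0 heart and 3 liver blood UMIs. With 1 UMI as the CD8 gate, Ccl3 was 4.28 and Ccl4 4.25 for heart. Xcl1 was 4.93 for heart with a pseudocount of 10 CPM, 9.33 for liver with cells of 1 gate alone and 4.51 for kidney without the 5% of cells with most UMIs. Ccl5 was less stable: for heart it was -0.36 with a floor of 1000 UMIs, -0.29 with cells of 1 gate alone, 0.52 with 1 UMI as the gate, -0.33 with a Cd3 UMI required, -0.074 without the deepest 5% of cells, -0.053 as the mean over cells and -1.44 with the labels of heart and liver TIL exchanged. For liver it was -0.98 with cells of 1 gate alone, -0.15 with 1 UMI as the gate, -0.96 with a Cd3 UMI, -0.96 without the deepest cells and 0.43 after the exchange, and for kidney -2.65 without the deepest cells and -2.64 as the mean over cells. The exchange turned labelled liver over heart TIL to 1.30 for Ccl5 and -1.04 for Xcl1, and heart over kidney TIL to 0.037 for Xcl1, by construction. The causes of the other shifts were not tested.

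The number of genes called moved with the rule. For heart, 831 were called higher and 412 lower with a pseudocount of 10 CPM, 1453 and 530 with at least 30 UMIs and 1125 and 195 at 4-fold, and 3758 were called higher with 1 UMI as the CD8 gate. For liver the counts were 778 and 504, 965 and 458, and 1021 and 191 under the first 3 of these. For kidney they were 508 and 514, 392 and 326, and 269 and 183, and 558 were called higher with a floor of 1000 UMIs. With a stricter macrophage or neutrophil gate, of 2 UMIs of Csf1r or Csf3r, 25 ligand levels in these gates moved beyond counting error and 7 did not. Those that moved were lower, except Ccl3 in neutrophils of liver PC. Under the wider NK and CD4 gates, 6 ligand levels of NK and CD4 cells moved beyond counting error and 10 did not. Graft and blood were set side by side within an organ, and a test that takes the 3 organs as pairs was not run. Blood CD8 gates of 183 to 329 cells limit every blood level of Ccl3, Ccl4 and Xcl1.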
